A study of Mus musculus with 27 samples.

Results

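The core histone genes and their variants were followed in TAMH cells, an established line of immortalised hepatocytes from TGF-alpha transgenic mice. By rule, a member was a probe set annotated to a single symbol of the H2A, H2B, H3 or H4 genes or of their variants, with 1 probe set per gene, and 33 of the 19938 genes measured with a single symbol met it. Classes were assigned by symbol prefix alone. They comprised 4 H2A, 11 H2B, 3 H3 and 6 H4 genes, 24 in all, called replication-dependent below, and 9 genes of the variant class. The 24 thus include the testis histone genes H2ac1 and H2bc1, H2bc21, which encodes a variant, and H2bu1-ps, whose symbol has a pseudogene suffix. Linker H1 genes and the major histocompatibility genes with similar names were outside the rule. The members were chosen with earlier results of these data known, so the counts below describe the set and are not an independent test of it. Under the rule they were taken by symbol, and the only measured value in it was the mean over the 27 arrays. H2az1 was the 1 member with 2 probe sets, and its probe set was selected on that mean.

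The study gave confluent cultures in serum-free medium 2 mM APAP, 2 mM AMAP or control medium alone, and RNA was taken after 2, 6 or 24 h. APAP is acetaminophen (paracetamol), with its hydroxyl group para to the amide, and AMAP is the regioisomer with that group in the meta position. Each of the 9 groups holds 3 arrays with the numbers 30, 31 and 32 in their titles, and values are given below in that order. All groups share the 1 cell line, medium and array type (Affymetrix Mouse Gene 1.0 ST). The labels do not say that the 3 arrays came from separate cultures, so p-values measure the spread between these samples, which may be technical. Array medians ran from 6.92 to 7.07, and replicate arrays correlated at 0.992 to 0.997 across genes. Of 15 hepatocyte markers 13 were measured, with a median expression percentile of 98.3 among all genes. Markers of macrophages and leukocytes (9 measured) and of endothelium (8) had median percentiles of 23.4 and 25.4, fibroblast and stellate cell markers (10) 43.2, and biliary and progenitor markers (5) 74.2. Within these lists the percentiles ran from 12.1 to 95.2 (Cd14), 7.46 to 44.4, 19.1 to 99.7 (Vim) and 31.5 to 89.9, in the same order. The hepatocyte markers ran from 61.8 to 99.98.

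Core histones form the protein spool around which DNA is wound. Replication-dependent histone genes lie in clusters, are transcribed in S phase when new DNA must be packaged, and give mRNAs that end in a stem-loop instead of a poly(A) tail. The stem-loop is bound by SLBP, and these mRNAs are degraded quickly when DNA synthesis stops. Variant and replacement histones such as H2A.Z, H2A.X, macroH2A and H3.3 are mostly made outside S phase as well, and are placed into chromatin by dedicated chaperones. In array data from whole cultures, fewer cells in S phase and less histone RNA per cell cannot be told apart. Coding sequences within a histone class are near-identical, so the value of a single histone gene is uncertain, and cross-hybridisation was not tested.

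Replication-dependent histone genes were lower with APAP already at 2 h. At that time 17 of the 24 fell and 0 rose, and the fitted difference was negative for 24 of 24. Among all genes tested, 0.371% were called lower in that comparison and 0.311% higher. A call here is an adjusted p under 0.05 in limma's moderated test with Benjamini-Hochberg adjustment over all 19938 genes. The median difference over the 24 genes was -0.65 on the log2 scale, against 0.01 over all genes. H2A genes had the lowest median (-1.32, 4 of 4 called), followed by H4 (-0.86, 5 of 6), H2B (-0.57, 8 of 11) and H3 (-0.36, 0 of 3). In 19 of the 24 genes all 3 APAP arrays lay below all 3 control arrays, a pattern met by 8.12% of all genes.

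H2ac4, a gene for replication-dependent H2A, had the lowest difference at 2 h. Its log2 values were 8.89, 8.80 and 9.03 in control cultures at 2 h, and 6.42, 6.39 and 6.44 with APAP. The groups were far apart, with a difference of -2.50 ± 0.21 (log2, SE, adjusted p = 4.86e-08 in limma, n = 3 arrays each). With APAP it lay under the median signal of each array, where background bounds a ratio, and no fold is given. H2ac15 measured 10.65, 10.58 and 10.59 in control cultures and 8.94, 9.18 and 9.35 with APAP. All 3 APAP arrays were lower, and the log2 difference was -1.45 ± 0.11, or 2.73-fold (limma, adjusted p = 3.78e-08). H2ac8 lay below the array medians on all 27 arrays, and its difference was -1.19 ± 0.18. H2ac1, which encodes the testis H2A known as TH2A, differed least among the H2A genes, at -0.44 ± 0.08 (adjusted p = 0.00574 in limma).

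Among the 11 H2B genes, H2bc3 had log2 values of 9.30, 9.54 and 9.38 in control cultures at 2 h and 7.43, 7.41 and 7.31 with APAP. H2bc14 had 10.93, 10.98 and 10.99 in control cultures against 9.05, 9.24 and 9.44 with APAP. Both genes showed a gap several times wider than the spread within either group. The log2 difference of H2bc3 was -2.02 ± 0.18, or 4.06-fold (limma, adjusted p = 1.01e-07), and that of H2bc14 was -1.72 ± 0.17, or 3.30-fold (limma, adjusted p = 4.86e-07). H2bc1, the gene of the testis H2B TH2B, fell by 1.15 ± 0.13, and H2bc9 by 0.98 ± 0.12. The other 4 called H2B genes (H2bc18, H2bu2, H2bc8 and H2bu1-ps) fell by 0.54 to 1.27. H2bc1 lay below the array medians on 10 of the 27 arrays and H2bu2 on 23. For both genes these included the 3 APAP arrays at 2 h, where background bounds the difference. H2bc21 (-0.40), H2bc22 (-0.31) and H2bc4 (-0.06) did not pass the test. H2bc4 belongs to the 2 H2B genes with the highest mean over all arrays, and its control values of 9.63, 9.68 and 9.51 overlapped the APAP values of 9.48, 9.67 and 9.48.

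The H4 genes all encode the same protein, and 5 of the 6 fell at 2 h. H4c6 had log2 values of 10.38, 10.33 and 10.55 in control cultures and 9.14, 9.39 and 9.24 with APAP. Its difference was -1.17 ± 0.15 (2.24-fold, adjusted p = 3.37e-05 in limma). The groups did not overlap. H4c14 fell by 1.04 ± 0.11 and H4c4 by 0.98 ± 0.12, the H4 genes with the highest mean over all arrays. H4c8 fell by 0.73 ± 0.10 and H4c3 by 0.57 ± 0.11. H4c9 was the exception, with values of 9.37, 9.53 and 9.49 in control cultures and 9.36, 9.37 and 9.44 with APAP, and a difference of -0.07 whose 95% interval ran from -0.26 to 0.11. H4f16 also encodes an H4 protein and was placed with the variants by its symbol alone. It was the 1 gene of the 9 in that class to fall at 2 h, from 10.09, 10.33 and 10.41 in control cultures to 9.20, 9.51 and 9.38 with APAP (-0.91 ± 0.12, adjusted p = 6.55e-05 in limma).

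None of the 3 single-symbol H3 genes passed the test at 2 h. The differences were -0.43 ± 0.23 for H3c7, -0.36 ± 0.15 for H3c4 and -0.23 ± 0.12 for H3c15 (adjusted p = 0.604, 0.437 and 0.555 in limma). H3c7 lay below the array medians on all 27 arrays. H3c4 lay below them on 6 arrays and H3c15 on 1. The 95% interval of H3c15 ran from -0.47 to 0.01, so with 3 arrays a group a decrease within that interval was not excluded.

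The calls at 2 h were the most stable of the 3 times. Of the 18 genes called, H4f16 included, 13 kept their call in all 19 alternative analyses run for them (18 for H2ac8). The other 5 (H2ac1, H2bc8, H2bu1-ps, H2bu2 and H4c3) lost it in 5 to 7 of 19. Leaving out a single array, the control array numbered 32 alone took all 5 below the threshold, and 13 genes stayed called. The APAP arrays numbered 30 and 31 and the control array numbered 30 took 1 or more of them below it.

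**Figure D1:**
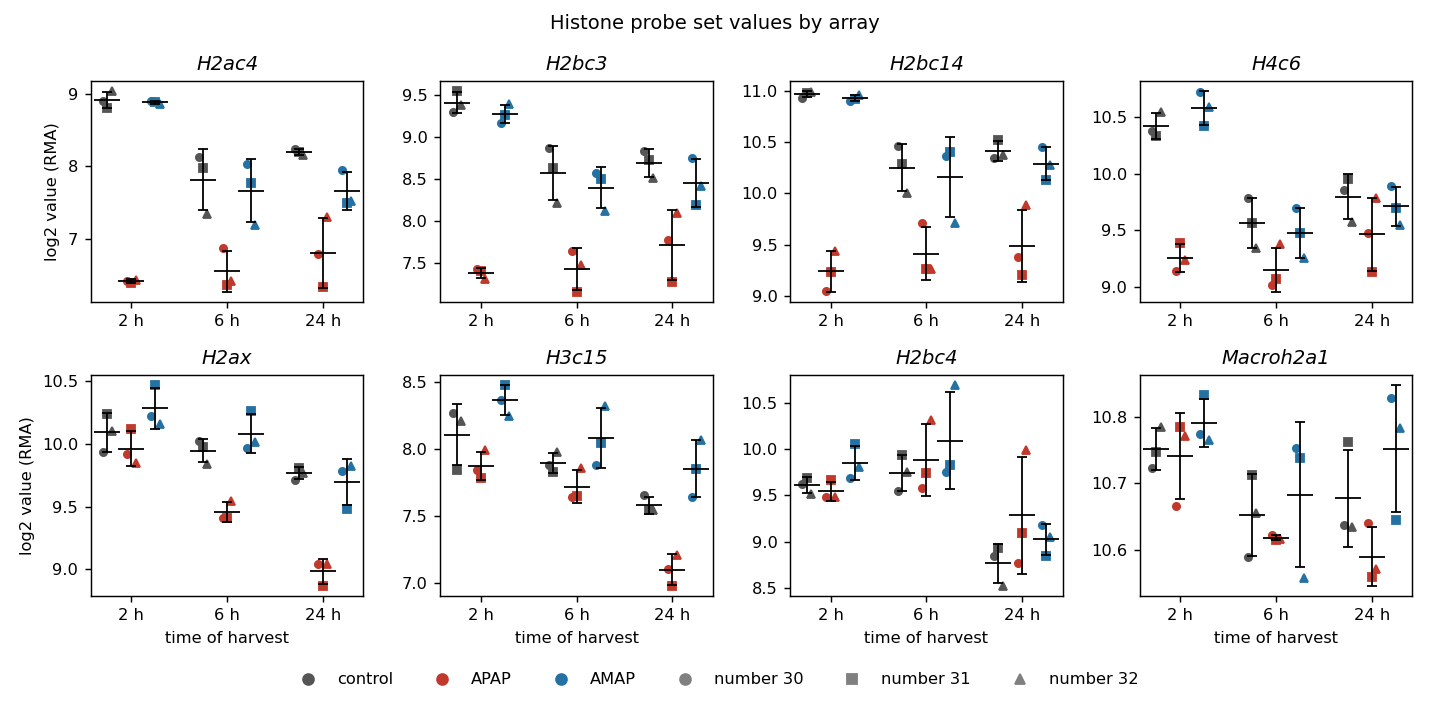
Deposited log2 values (vertical axis, RMA scale, different range in each panel) of 8 histone genes in control, APAP and AMAP cultures at 2, 6 and 24 h (horizontal axis). Points are single arrays, marked by the number in their title, and black bars are the mean ± SD of 3 arrays. The APAP means of H2ac4, H2bc3 and H2bc14 are lowest at 2 h and that of H4c6 at 6 h, while the control and AMAP means of these 4 genes are highest at 2 h. H2ax and H3c15 reach their lowest values with APAP at 24 h.

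Promoter sequences of members of each class are set side by side below. In the replication-dependent classes they are the genes with a window and the smallest p in a comparison of APAP with control. RefSeq windows from GRCm38.p6 were matched by symbol for 26 of the 33 members and covered 250 bases before the annotated start. The 180 bases next to the start are printed, 5′ to 3′, for up to 2 genes of each replication-dependent class and for 1 replacement variant of the H2A and the H3 family. Capitals mark matches, on either strand, to the TATA box (TATAAA), the CCAAT box (CCAAT) and the octamer (ATTTGCAT), an element known from H2B promoters where it is bound by the factor POU2F1. The H2A windows are those of H2ac4 (chr13:23750908-23751087 on the plus strand) and H2ac15 (chr13:21753913-21754092 on the minus strand). H2B is shown by H2bc3 (chr13:23746554-23746733 on the plus strand) and H2bc14 (chr13:21721864-21722043 on the plus strand). H4 is shown by H4c6 (chr13:23551669-23551848 on the minus strand) and H4c4 (chr13:23581388-23581567 on the plus strand). H3 is shown by H3c15 (chr3:96239128-96239307 on the minus strand) and H3c4 (chr13:23575583-23575762 on the plus strand). The replacement variants are H2az1 (chr3:137864307-137864486 on the plus strand) and H3f3a (chr1:180813606-180813785 on the minus strand).
H2ac4: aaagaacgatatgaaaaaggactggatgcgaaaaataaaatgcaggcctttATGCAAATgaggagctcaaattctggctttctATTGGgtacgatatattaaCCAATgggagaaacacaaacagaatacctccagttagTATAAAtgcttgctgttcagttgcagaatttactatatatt
H2ac15: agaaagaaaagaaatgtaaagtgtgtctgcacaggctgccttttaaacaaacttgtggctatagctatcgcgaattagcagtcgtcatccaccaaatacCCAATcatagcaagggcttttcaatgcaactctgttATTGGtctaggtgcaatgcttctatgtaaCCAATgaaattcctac
H2bc3: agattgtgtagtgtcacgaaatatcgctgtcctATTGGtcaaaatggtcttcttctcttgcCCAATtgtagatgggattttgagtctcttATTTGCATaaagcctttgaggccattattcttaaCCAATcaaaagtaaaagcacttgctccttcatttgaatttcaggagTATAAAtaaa
H2bc14: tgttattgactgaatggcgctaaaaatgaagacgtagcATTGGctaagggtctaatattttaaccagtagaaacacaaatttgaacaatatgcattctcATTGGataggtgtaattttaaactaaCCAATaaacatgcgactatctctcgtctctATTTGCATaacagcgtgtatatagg
H4c6: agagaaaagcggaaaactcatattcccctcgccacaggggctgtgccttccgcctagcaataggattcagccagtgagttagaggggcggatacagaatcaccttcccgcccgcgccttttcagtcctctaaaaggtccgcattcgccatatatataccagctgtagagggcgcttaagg
H4c4: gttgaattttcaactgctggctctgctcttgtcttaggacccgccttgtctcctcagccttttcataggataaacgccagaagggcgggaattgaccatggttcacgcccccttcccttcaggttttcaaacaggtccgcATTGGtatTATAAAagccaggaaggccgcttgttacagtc
H3c15: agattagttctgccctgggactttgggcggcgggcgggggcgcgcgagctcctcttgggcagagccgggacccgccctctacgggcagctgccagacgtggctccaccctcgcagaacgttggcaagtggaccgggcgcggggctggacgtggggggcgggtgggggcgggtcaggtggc
H3c4: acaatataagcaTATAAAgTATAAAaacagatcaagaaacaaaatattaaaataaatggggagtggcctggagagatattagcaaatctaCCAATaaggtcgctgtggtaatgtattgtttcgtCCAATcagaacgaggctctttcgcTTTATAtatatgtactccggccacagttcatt
H2az1: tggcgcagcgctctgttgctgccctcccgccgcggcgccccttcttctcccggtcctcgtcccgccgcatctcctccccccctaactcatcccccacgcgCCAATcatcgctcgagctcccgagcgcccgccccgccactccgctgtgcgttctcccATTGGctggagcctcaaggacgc
H3f3a: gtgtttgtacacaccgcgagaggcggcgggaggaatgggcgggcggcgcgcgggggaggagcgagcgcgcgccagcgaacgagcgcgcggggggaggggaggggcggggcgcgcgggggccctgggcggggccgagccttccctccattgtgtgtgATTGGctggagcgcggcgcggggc

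The TATA letters occurred in 12 of the 19 replication-dependent windows of 250 bases and in 0 of the 7 windows of the variant class, against 12.4% of 32851 RefSeq windows. CCAAT occurred in 15 of the 19, in all H2A (4) and H2B (8) windows, and in 4 of the 7 of the variant class, against 33.9% of all windows. The octamer was found in 3 of the 4 H2A and 5 of the 8 H2B windows, in 0 of the 2 H3, 5 H4 and 7 variant windows, and in 1.60% of all windows. None of the 3 motifs contains another, and a match is a description of the window, counted at any position and on either strand. The nearest TATA match began between -43 and -32 from the start in H2ac1, H2ac4, H2bc8, H2bu2, H3c4 and H4c4. It began at -10 in H2bc3, -94 in H2bc1, -137 in H4c9, -142 in H2ac8, -212 in H2bc22 and -250 in H4c6. The 250-base windows of H2bc1 and H2ac1 share 220 bases and those of H2bc8 and H2ac8 share 179, so these pairs do not count as independent promoters. Of the genes without a TATA match, H2ac15 and H2bc14 were among the lowest with APAP. H3c4 has TATA and CCAAT matches and was not called. Whether these motifs relate to the differences with APAP was not tested.

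At 6 h H2A and H2B genes were again lower with APAP. Of the 24 replication-dependent genes 8 fell and 0 rose, where 1.44% of all genes tested were called lower and 1.05% higher. The median difference was -0.35, against 0.00 over all genes. H2A had 3 of 4 genes called (median -0.77), H2B 4 of 11 (-0.35), H4 1 of 6 (-0.33) and H3 0 of 3 (-0.18). In 15 of the 24 all APAP arrays lay below all control arrays, compared with 8.58% of all genes.

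H2ac4 had control values of 8.13, 7.97 and 7.34 at 6 h and APAP values of 6.88, 6.36 and 6.42 (-1.26 ± 0.21, adjusted p = 0.000678 in limma). H2bc3 had 8.86, 8.63 and 8.22 in control cultures against 7.65, 7.16 and 7.48 with APAP (-1.14 ± 0.18, adjusted p = 0.000378 in limma). The groups stayed apart in both genes, although the control values were lower than at 2 h and the APAP values were close to those at 2 h. H2ac15 fell by 0.87 ± 0.11 and H2bc14 by 0.84 ± 0.17. H2ac8 (-0.66), H2bc18 (-0.61), H2bc1 (-0.53) and H4c14 (-0.41) were called with adjusted p of 0.0206 to 0.0479 in limma. H4c6 (-0.41 ± 0.15, adjusted p = 0.182) and H4c4 (-0.39 ± 0.12, adjusted p = 0.0787 in limma) no longer passed.

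The control and AMAP arrays numbered 32 were the lowest of their groups for these genes at 6 h. Across the 24 genes, the control array numbered 32 lay at a median of -0.21 from the control mean, against 0.12 and 0.05 for numbers 30 and 31, and the AMAP array numbered 32 lay at -0.25. Compared by number, the median difference between APAP and control was -0.45 for number 30, -0.48 for number 31 and -0.17 for number 32. The count of 9 called members at 6 h, H2ax included, fell to 4 without the control array numbered 30 and to 5 without the control array numbered 31, the APAP array numbered 31 or the APAP array numbered 32. H2ac15 and H2bc3 kept their 6 h calls in all 19 alternatives.

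At 24 h 9 of the 24 replication-dependent genes were lower with APAP and 0 were higher, at a time when 5.97% of all genes were called lower and 3.36% higher. Their median difference was -0.31, against 0.02 over all genes. By class 3 of 4 H2A genes were called (median -0.50), 4 of 11 H2B (-0.26), 1 of 3 H3 (-0.32) and 1 of 6 H4 (-0.23). In 11 of the 24 the arrays did not overlap, with APAP below, as in 13.7% of all genes.

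H2ac4 measured 8.23, 8.19 and 8.15 in control cultures at 24 h and 6.79, 6.34 and 7.30 with APAP (-1.38 ± 0.21, adjusted p = 9.50e-05 in limma). H2bc14 measured 10.35, 10.52 and 10.38 against 9.38, 9.21 and 9.88 (-0.92 ± 0.17, adjusted p = 0.000732 in limma). The APAP array numbered 32 was the highest of the 3 in both genes, and the groups still did not overlap. H2bc3 fell by 0.97 ± 0.18, H2ac15 by 0.71 ± 0.11 and H2bc1 by 0.55 ± 0.13. H4c14 fell by 0.37 ± 0.11 (adjusted p = 0.0365 in limma), while H4c8, with control values of 7.58, 7.62 and 7.60 and APAP values of 7.55, 7.66 and 7.84, differed by 0.08 ± 0.10. H2bc4 was the replication-dependent gene with the highest difference, 0.52 ± 0.23 (adjusted p = 0.183 in limma), with APAP values of 8.77, 9.09 and 9.99 spread around control values of 8.85, 8.93 and 8.52.

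H3c15 was the 1 H3 gene called at 24 h, after -0.23 at 2 h and -0.18 at 6 h. Its values were 7.66, 7.55 and 7.54 in control cultures and 7.11, 6.98 and 7.21 with APAP, which do not overlap. The difference was -0.48 ± 0.12 (1.40-fold, adjusted p = 0.00929 in limma). This call was lost in 3 of 19 alternatives, 1 of them without the APAP array numbered 31.

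The APAP array numbered 32 at 24 h lay close to control for these genes as a group, at a median deviation of -0.04 from the control mean, against -0.38 and -0.51 for numbers 30 and 31. Compared by number, 23, 21 and 16 of the 24 genes were lower with APAP than with control for numbers 30, 31 and 32. The count of 11 called members fell to 6 without the APAP array numbered 31 and to 7 without the control array numbered 30 or the control array numbered 31. At 2 h all 3 numbers gave 24 of 24 genes lower, with median differences of -0.81, -0.67 and -0.73. Over the 3 times, 7 genes were called at each of them: H2ac4, H2ac15, H2bc1, H2bc3, H2bc14, H2bc18 and H4c14. Their later calls were not equally stable. Of 19 alternatives, H4c14 lost its call in 12 at 6 h and 10 at 24 h. H2bc18 lost it in 10 and 9, and H2bc1 in 9 and 2. H2ac4, H2ac15, H2bc3 and H2bc14 lost theirs in 0 to 2 at these times.

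**Figure D2:**
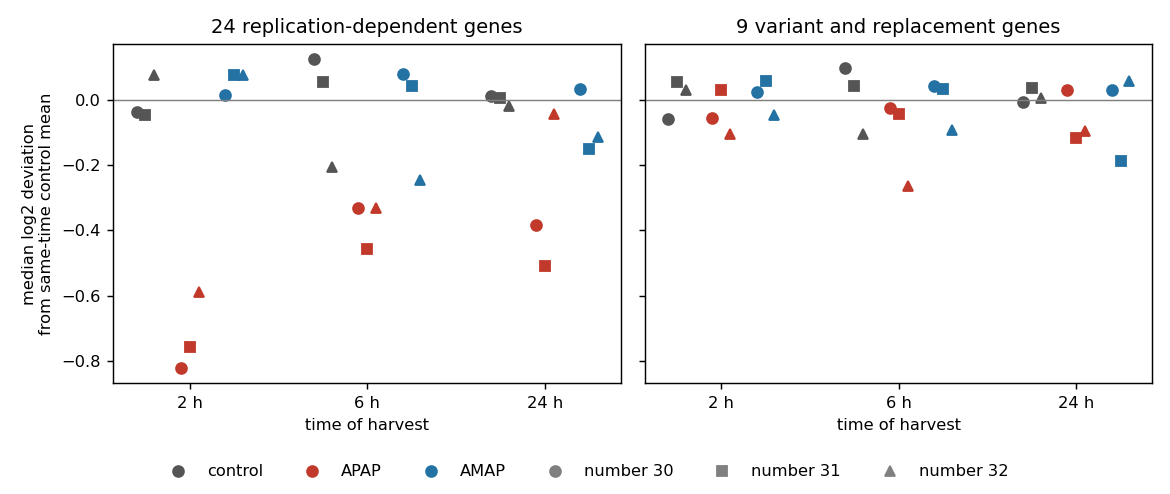
Median log2 deviation of each array from the mean of the control arrays of the same time (vertical axis), over the 24 replication-dependent genes (left) and the 9 genes of the variant class (right), at 2, 6 and 24 h (horizontal axis). Each point is 1 array, coloured by treatment and shaped by the number in its title. On the left the 3 APAP arrays lie lowest at 2 h, and the APAP array numbered 32 at 24 h lies at -0.04.

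Control levels of these genes were themselves lower after 2 h. In control cultures 12 of the 33 members were lower at 6 h than at 2 h and 0 were higher, with 0.266% of all genes called lower and 0.441% higher. They were H2ac4, H2ac15, H2bc1, H2bc3, H2bc9, H2bc14, the H4 genes other than H4c9, and H4f16. H4c14 went from 11.37, 11.24 and 11.31 at 2 h to 10.78, 10.66 and 10.43 at 6 h (-0.68 ± 0.11, adjusted p = 0.00383 in limma), and H2ac15 fell by 0.65 ± 0.11. At 24 h 8 members were below their 2 h level, where 0.627% of all genes were called lower, with H4c8 at -0.46 ± 0.10 (adjusted p = 0.0190 in limma) and H3c15 at -0.52 ± 0.12. Most of these declines depended on single arrays. Of the 12 calls at 6 h, 4 (H4c4, H4c6, H4c8 and H4c14) were kept whichever single array was left out. Of the 8 calls at 24 h, 0 were. The 6 h count fell to 5 without the 2 h control array numbered 32 and to 4 without the 6 h control array numbered 32. The 24 h count fell to between 0 and 2 when any 1 of the 6 control arrays at 2 and 24 h was left out.

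Changes over time within the APAP cultures were not tested. The mean log2 level of H2ac4 with APAP was 6.41, 6.55 and 6.81 at 2, 6 and 24 h, with SDs of 0.03, 0.28 and 0.48. For H4c14 the APAP means were 10.27, 10.22 and 10.42, against control means of 11.31, 10.62 and 10.79. The same control arrays enter the APAP comparison and the control comparison at 2 h, so the values are given side by side only. The change in the APAP effect between times was tested as an interaction. Between 2 and 6 h 0 members were called by limma (16 at an unadjusted p under 0.05), and 0 of all genes were. The share of all genes at the unadjusted threshold was not taken. Between 2 and 24 h 3 members were called, where 0.171% of all genes were called higher and 0.186% lower. The APAP effect was less negative at 24 h for H2ac15 (by 0.74 ± 0.16, adjusted p = 0.0385) and H4c8 (by 0.81 ± 0.14, adjusted p = 0.00374 in limma), and more negative for H2ax (-0.65 ± 0.15, adjusted p = 0.0470). H2ac15 lost this call in 14 of 25 alternatives, H2ax in 16 and H4c8 in 3. The count of 3 became 6 without the APAP array numbered 31 at 24 h, and 1 without the APAP array numbered 32 at 24 h, any 1 of the 24 h control arrays, the APAP arrays numbered 30 or 31 at 2 h, or the control arrays numbered 30 or 32 at 2 h.

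H2ax, the gene of H2A.X that is phosphorylated beside DNA breaks, was called with APAP at 6 and 24 h and not at 2 h. At 2 h the control values were 9.93, 10.24 and 10.10 and the APAP values 9.92, 10.12 and 9.85. They overlapped, with a difference of -0.13 ± 0.10. At 6 h the control values of 10.02, 9.98 and 9.84 stood above the APAP values of 9.41, 9.41 and 9.55. H2ax differed by -0.49 ± 0.10, or 1.41-fold (limma, adjusted p = 0.00805). That call was lost in 2 of 19 alternatives, 1 of them without the control array numbered 30. At 24 h it measured 9.71, 9.81 and 9.77 in control cultures and 9.04, 8.87 and 9.04 with APAP. The difference of -0.78 ± 0.10 (1.72-fold, adjusted p = 2.40e-05 in limma) was kept in all 19 alternatives.

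H2az1, which encodes the H2A.Z found at promoters, was not called at 2 h (-0.05) or 6 h (0.10) and fell at 24 h. Its 24 h values were 12.59, 12.59 and 12.48 in control cultures and 12.26, 12.10 and 12.36 with APAP, a difference of -0.31 ± 0.09 (1.24-fold, adjusted p = 0.0203 in limma). The call was lost in 7 of 19 alternatives. These included leaving out the APAP array numbered 31, the control array numbered 30 or the control array numbered 31. H2az2, the second H2A.Z gene, differed by -0.05, -0.09 and -0.08 at 2, 6 and 24 h. H2aj differed by -0.02, -0.03 and 0.22, and at 24 h its APAP values of 9.91, 9.85 and 10.06 lay above all control values (adjusted p = 0.0887 in limma).

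Among the macroH2A genes, whose products carry a large extra domain and mark silent chromatin, none was called with APAP. Macroh2a1 differed from control by -0.01, -0.03 and -0.09 at 2, 6 and 24 h, with a 95% interval at 2 h of -0.15 to 0.13. Macroh2a3 differed by -0.07, -0.12 and 0.15. Macroh2a2 (0.40, -0.19 and 0.23) and H3f3a (0.06, 0.09 and 0.01) lay below the array medians on all 27 arrays. The median over the 9 genes of the variant class was -0.05 at 2 h, -0.09 at 6 h and -0.08 at 24 h.

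**Figure D3:**
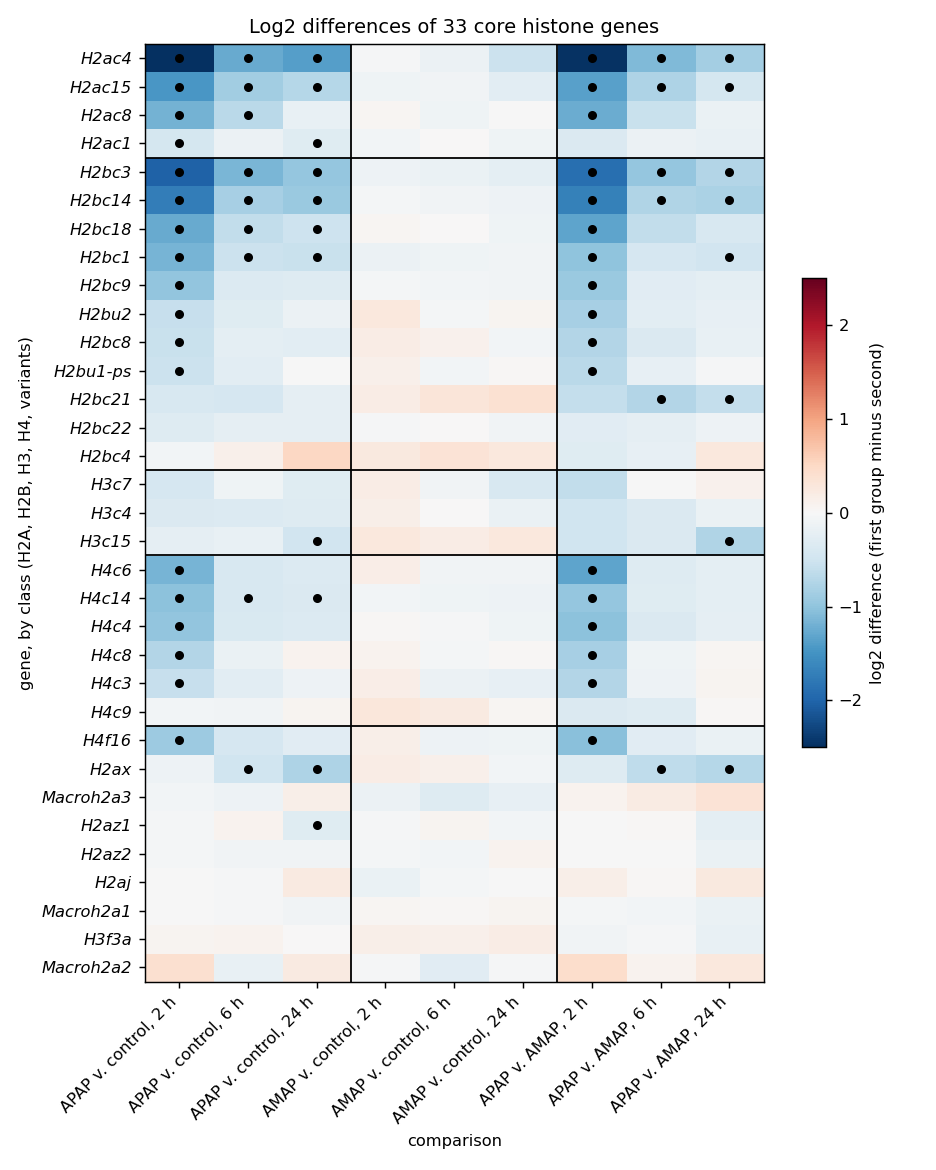
Log2 difference (colour, blue lower and red higher in the first group named) of the 33 genes (rows, ordered within class by the APAP effect at 2 h) in 9 comparisons (columns). Black points mark an adjusted p under 0.05 in limma. For APAP against control at 2 h 18 of 33 genes are marked, 17 of them H2A, H2B or H4 genes and 1 of the variant class. For APAP against AMAP at 2 h 17 are marked, and the AMAP against control columns hold 0.

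No histone gene was called with AMAP. At 2, 6 and 24 h 0 of the 33 members were called by limma against control, while 0.0903%, 0.296% and 0.416% of all genes were called lower and 0.0903%, 0.16% and 0.311% higher. At an unadjusted p under 0.05 in limma there were 3, 2 and 5 members, and the share of all genes at that threshold was not taken. The difference was negative in 14, 20 and 23 of the 33, where the median over all genes was -0.02, 0.01 and -0.01. The medians over the 24 replication-dependent genes were 0.08, -0.06 and -0.09. H2ac4 measured 8.90, 8.88 and 8.86 with AMAP at 2 h, inside the range of the control arrays. Its difference was -0.03, with a 95% interval from -0.46 to 0.39. The lowest interval bound of any of the 24 genes at 2 h was -0.50 (H2bc3). At 24 h the lowest bound was -0.96, for H2ac4, whose AMAP values of 7.95, 7.49 and 7.52 were below all control values (-0.54 ± 0.21, adjusted p = 0.276 in limma).

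APAP and AMAP were compared directly at the same dose and times, for 33 members at 3 times with p-values adjusted over all genes within each time. At 2 h APAP was lower than its regioisomer in 17 members and higher in 0, where 0.166% of all genes were called lower and 0.0953% higher. In 24 of 24 replication-dependent genes the 3 APAP arrays were below the 3 AMAP arrays, as in 4.7% of all genes, and the median difference was -0.83. H2ac4 differed by -2.46 ± 0.21, H2bc3 by -1.89 ± 0.18, H2bc14 by -1.68 ± 0.17 and H4c6 by -1.32 ± 0.15 (adjusted p = 9.12e-08, 3.23e-07, 7.89e-07 and 6.84e-06 in limma). Of the 17 calls 12 were kept in all alternatives run for them, and the other 5 were lost in 1 or 2.

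At 6 h 6 members were lower with APAP than with AMAP (0.231% of all genes), and at 24 h 8 were (2.78%). Higher calls numbered 0 at both times, against 0.476% and 1.87% of all genes. All 3 APAP arrays lay below all 3 AMAP arrays in 16 of the 24 replication-dependent genes at 6 h and in 8 at 24 h, as in 5.34% and 10.1% of all genes. H2ac4, H2ac15, H2bc3 and H2bc14 were called at all 3 times, and their calls at 6 and 24 h were lost in 2 to 8 of 19 alternatives. H2ax differed by -0.32 ± 0.10 at 2 h (adjusted p = 0.318), by -0.63 ± 0.10 at 6 h (adjusted p = 0.00212) and by -0.71 ± 0.10 at 24 h (adjusted p = 9.43e-05 in limma). H3c15 at 24 h measured 7.64, 7.86 and 8.07 with AMAP, above the APAP values given before, and differed by -0.76 ± 0.12 (1.69-fold, adjusted p = 0.000181 in limma), a call kept in all 19 alternatives. H2bc21, the gene of the variant H2BE known from olfactory neurons, was called against AMAP at 6 h (-0.73 ± 0.17) and 24 h (-0.60 ± 0.17) but against control at no time. Its AMAP values at 6 h were 8.39, 8.27 and 7.65, its control values 7.88, 7.97 and 7.55, and its APAP values 7.54, 7.46 and 7.12. The AMAP and control arrays overlapped, and the APAP arrays lay below both. The H2bc21 call was lost in 9 of 19 alternatives at 6 h and in 8 at 24 h. Leaving out any 1 of 4 arrays at 6 h, or of 5 at 24 h, was enough. The 6 h count became 2 without the AMAP array numbered 30 and 10 without the AMAP array numbered 32. The 24 h count became 3 without the AMAP array numbered 30 or the APAP array numbered 31, and 5 without the APAP array numbered 30. For the genes not called, the difference between the compounds was not shown to be absent. At 2 h the interval for H4c9 ran from -0.55 to -0.18 and that for Macroh2a1 from -0.19 to 0.09.

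Probe sets annotated to more than 1 gene, which the rule left out, gave a second reading of the same classes. There were 32 with a core histone among their symbols, holding 30 distinct profiles, and they were tested in a fit over all 35557 probe sets of the table. They share sequences with one another and partly with the members, so they are not independent of them. With APAP at 2 h 25 of the 32 fell, against 0.304% of all probe sets called lower. All 10 shared H3 probe sets fell, with a median difference of -1.19 and a range from -1.27 to -1.15, although 0 of the 3 single-symbol H3 genes were called. Each of these 10 was annotated to 12 core histone genes, so at no time do they count as 10 separate measurements. The 8 shared H2B probe sets fell as well (median -1.43), as did both H2A sets (-0.98) and 5 of 6 H4 sets (-0.89). The 6 sets that carry H3f3a or H3f3b, the H3.3 genes, with another symbol had a median of -0.00 and a range from -0.06 to 0.03.

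The shared H3 sets were called lower at the later times as well. At 6 h 19 of 32 fell (0.714% of all probe sets), with H3 at a median of -0.66 and 10 of 10 called. At 24 h 19 fell (3.4% of all probe sets). The 10 H3 sets were all called, at a median of -0.98, and 7 of the 8 H2B sets were, at -0.79. Of the 6 H4 sets 0 were called at 24 h, at a median of -0.26. With AMAP against control 0 of the 32 were called at any time, with 0.0253%, 0.0759% and 0.138% of all probe sets called lower at 2, 6 and 24 h, and 0.0197%, 0.045% and 0.0844% higher. APAP was below AMAP in 25, 7 and 19 of them, against 0.222%, 0.143% and 1.52% of all probe sets. Whether the H3 and H4 classes differ in their change over time was not tested.

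**Figure D4:**
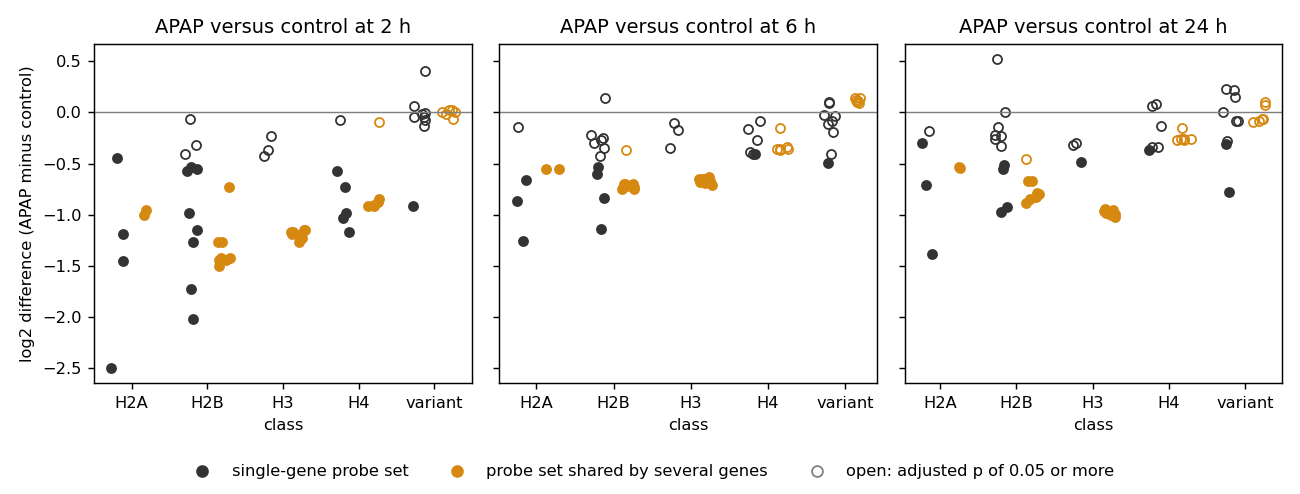
Log2 difference between APAP and control (vertical axis) at 2, 6 and 24 h (panels) by histone class (horizontal axis), for single-gene probe sets (black) and probe sets annotated to several genes (orange). Filled points have an adjusted p under 0.05 in limma. The shared H3 sets lie near -1.19 at 2 h and -0.98 at 24 h, below the 3 single-gene H3 points, and the shared sets of the variant class lie near 0.

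Genes that act on histone mRNA or protein were read from lists beside the histones. Of 22 measured genes of histone transcription and 3 prime end processing, 1 rose and 0 fell at 2 h, 3 rose at 6 h, and 1 rose and 2 fell at 24 h. Of all genes 0.311%, 1.05% and 3.36% were called higher with APAP at 2, 6 and 24 h, and 0.371%, 1.44% and 5.97% lower. Slbp, whose product binds the histone stem-loop, rose with APAP at 2 h (0.37 ± 0.07, adjusted p = 0.00747), 6 h (0.38 ± 0.07) and 24 h (0.28 ± 0.07, adjusted p = 0.0118 in limma). It rose with AMAP at 2 h as well (0.35 ± 0.07, adjusted p = 0.0314 in limma), when 0 histone genes were called. Ccne1 and Ccne2, the E cyclins that act with CDK2 in S phase entry, rose at 6 h with APAP by 0.59 ± 0.12 and 0.63 ± 0.16. Cpsf2 and Cpsf3, subunits of the complex that cuts pre-mRNA 3 prime ends, fell at 24 h by 0.54 ± 0.11 and 0.44 ± 0.10.

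Of 28 histone chaperone and deposition genes 0 were called at 2 and 6 h. At these times 0.371% and 1.44% of all genes were called lower, and 0.311% and 1.05% higher. At 24 h, when 5.97% of all genes were called lower and 3.36% higher, 3 fell and 1 rose. Anp32e, which removes H2A.Z (-0.68 ± 0.12), Asf1a (-0.32 ± 0.10) and Hira (-0.28 ± 0.08) fell, and Ubn1, a partner of Hira, rose (0.35 ± 0.09). Of 42 DNA replication genes 0 were called with APAP at 2 or 6 h, with medians of 0.01 and 0.10. The shares of all genes at these times were those given above. At 24 h 6 fell and 0 rose, at a list median of -0.10 and beside the 24 h shares of all genes given above. Those that fell included Pold2 (-0.73 ± 0.09), Uhrf1 (-0.58 ± 0.11), Tk1 (-0.54 ± 0.11) and Gins1 (-0.66 ± 0.13). Of 18 S phase checkpoint genes 1 fell at 2 h, 1 at 6 h and 2 at 24 h, against 0.371%, 1.44% and 5.97% of all genes. Wee1 fell at 2 h (-0.51 ± 0.11) and 24 h (-0.49 ± 0.11), Cdc25b at 6 h (-0.80 ± 0.17) and Hus1 at 24 h (-0.32 ± 0.08).

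Of 19 mitosis genes 1 (Cenpe, -0.63 ± 0.13) fell at 2 h, 13 at 6 h and 7 at 24 h, with medians of -0.39, -0.67 and -0.36. The shares of all genes called lower were 0.371%, 1.44% and 5.97%, for these and for the linker H1 genes. At 6 h the mitosis genes called included Cenpf (-1.18 ± 0.17), Bub1b (-1.25 ± 0.18), Tpx2 (-0.83 ± 0.12) and Cenpa, the centromeric H3 variant outside the rule (-0.73 ± 0.12). Of 8 linker H1 genes H1f5 and H1f1 fell at 2 h, by 1.62 ± 0.18 and 1.19 ± 0.18. H1f5 fell also at 6 h (1.28) and 24 h (1.77), and H1f1 at 24 h (1.19). Apart from Slbp at 2 h, 0 genes of these 6 lists were called with AMAP against control. Of the 45 cell type markers measured 0 were called with APAP at 2 h. At 6 h the macrophage marker Cd14 fell with APAP (-0.40) and with AMAP (-0.34). At 24 h the hepatocyte marker Foxa2 (-0.29), the fibroblast marker Vim (-0.24) and the biliary marker Sox9 (-0.35) fell with APAP, against 5.97% of all genes called lower. The list medians at 24 h were 0.13 for hepatocyte markers, 0.02 for fibroblast and stellate cell markers and -0.59 for biliary and progenitor markers. Of the latter 5 of 5 were negative, from -0.91 (Krt7, adjusted p = 0.0654 in limma) to -0.14 (Epcam). With AMAP at 24 h the biliary list had a median of -0.31, with 0 called. The median level of the 5 biliary and progenitor markers lay between 8.68 and 9.40 in the 9 groups, and that of the 13 hepatocyte markers between 11.7 and 11.9. The part of these markers in the histone result was not tested.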

How the data were processed

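Total RNA was measured on 27 Affymetrix Mouse Gene 1.0 ST arrays. The deposited values are log2 signals that the authors obtained by RMA in Affymetrix Expression Console 1.1, per the submitters' processing notes; the log base was taken from the range of the values. Detection calls were not analysed here, and the genome build is not given in the sources used here.

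Of 35557 probe sets 21789 have 1 gene symbol, 1621 several and 12147 none. Where a gene had several, the one of highest mean signal was kept, which left 19938 genes. limma 3.58.1 (R 4.3.3) was fitted with 9 group means over all 27 arrays (18 residual degrees of freedom), with 13 two-sided comparisons and Benjamini-Hochberg adjustment within each. The script was tested on simulated data. Figures were drawn with matplotlib 3.10.9.

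The members and gene lists were chosen with earlier results of these data known. Genes were named by a rule. In each replication-dependent class these were up to 4 genes with the smallest p in a comparison of APAP with control and the 2 with the highest mean; all variants and up to 4 called genes of each list were also named. H2bc8, H2bc18, H2bc21, H2bc22, H2bu1-ps, H2bu2, H4c3, H4c9, Krt7 and Epcam were named after their values were seen.

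The array numbers 30 to 32 occur in every group. Deviations from the group means correlated above 0.1 for every same-numbered pair in APAP against control at 2 h (lowest r 0.23) and 6 h (0.19), AMAP against control at 6 h (0.19), and APAP against AMAP at 6 h (0.25) and 24 h (0.21), and not in the other comparisons tested. Alternatives covered the number as a block, normalization, probe set choice, dim genes, the arrays fitted and each array left out.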

Additional observations from a re-analysis of the deposited data

Results flagged for a closer look

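For 3 genes the APAP effect at 24 h differed from that at 2 h by an interaction test over all genes in limma. For H4c8 the effect was higher at 24 h by 0.81 ± 0.14 on the log2 scale (adjusted p = 0.00374). Its difference from control was -0.73 at 2 h, with all 3 APAP arrays below control, and 0.08 at 24 h, where the arrays overlapped. For H2ac15 the effect was higher by 0.74 ± 0.16 (adjusted p = 0.0385), from -1.45 at 2 h to -0.71 at 24 h, with all 3 APAP arrays below control at both times. For H2ax the effect was lower at 24 h, at -0.65 ± 0.15 (adjusted p = 0.0470), from -0.13 at 2 h with overlapping arrays to -0.78 at 24 h with all 3 APAP arrays below control.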

How the results depend on the processing

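The alternatives were run for the counts of called members and for 92 single calls of members, and 0 of these calls reversed direction. The pathway and marker genes, the shared probe sets and members not called were not rerun. Counts of called members that moved by over 1.5 times are given here. With only the arrays of the groups compared, APAP against control gave 5 members at 6 h and 7 at 24 h, APAP against AMAP 2 at 6 h and 4 at 24 h, and control cultures at 24 h against 2 h 14. With all probe sets as features the counts were 5 for APAP against control at 6 h, 0 for control cultures at 24 h against 2 h, and 1 for the change in APAP effect from 2 to 24 h. That change, with 3 members called, gave 5 with a random replicate block, with quantile normalization or without dim genes, and 6 with trended, robust variances. The replicate block gave 18, 9 and 11 members for APAP against control at 2, 6 and 24 h, as without it, 0 for AMAP at each time, 19, 6 and 8 for APAP against AMAP, 14 and 12 for control cultures at 6 and 24 h against 2 h, and 6 for the change in APAP effect to 24 h; where the numbers pair the samples it moved no count by over 1.5 times.

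Leaving out arrays gave 13 to 18 members for APAP against control at 2 h, 3 to 12 at 6 h and 2 to 16 at 24 h. For AMAP against control the range was 0 to 0 at each time. APAP against AMAP ranged from 12 to 20 at 2 h, 0 to 10 at 6 h and 2 to 11 at 24 h. Control cultures ranged from 0 to 11 at 6 h and 0 to 2 at 24 h against 2 h, and the change in APAP effect from 0 to 0 (6 h) and 0 to 6 (24 h). Over all genes, APAP at 24 h gave 1190 lower and 670 higher calls, and 1808 and 394 with arrays centred on their medians. At 6 h the calls were 288 lower and 210 higher, and 232 and 264 with quantile normalization. Signal near background limits H2ac8, H2bc22, H3c7, H3f3a and Macroh2a2, which lay below the array medians on all 27 arrays. It also limits H2bu2, which lay below them on 23 arrays, H2bc1 (10), H2ac4 (8) and H3c4 (6). The 3 arrays a group limit all differences.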
